A study of Mus musculus with 16 samples.

Results

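Brain RNA of wild type C57BL/6J mice taken 8 h after an injection of lipopolysaccharide (LPS) was compared with that of wild type mice given saline. LPS, the endotoxin on the surface of Gram-negative bacteria, sets off innate immunity. Each injection had 4 libraries, each from hemi-brain of mice aged 3 to 4 months and perfused with PBS, so 8 of the 16 libraries of the series entered the comparison. The other 8 came from mice of the same strain and age labelled Lcn2-/- and are used only where named. Neither dose nor route of injection is named in the labels. A hemi-brain mixes regions and cell types, and perfusion removes most but not all blood. Genes entered when their log2 RPKM was at least -1, which is 0.5 RPKM (reads per kilobase of transcript, scaled to library size), in 3 or more of the 8 libraries. This left 16865 of 33289 genes, and 16424 were not tested. Nearest the limit, the third highest value was 0.5005 RPKM in Lysmd1, which entered, and 0.4996 RPKM in Zfp955a, which did not. RPKM values below were computed from the deposited log2 values. Read counts are not part of the table, so the depth of each library is unknown and values carry no counting interval. Each of the 10 neuronal, 10 astrocyte and 10 oligodendrocyte markers was above 0.5 RPKM in at least 1 library.

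The receptor for LPS is TLR4 with its partner MD-2 and the co-receptor CD14. Through MyD88 and TRIF it activates NF-kB and IRF transcription factors, and cytokines made in the first hours then activate STAT factors in other cells. In the brain, endothelial and perivascular cells, choroid plexus and microglia are the first to meet the circulating molecule or the cytokines it raises, while the blood-brain barrier keeps most neurons from direct contact. Illness of this kind also raises glucocorticoids.

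LPS shifted gene expression broadly, mostly by small amounts. At an adjusted p under 0.05 (limma, Benjamini-Hochberg over all genes tested), 2333 genes were higher after LPS, 13.8% of those tested, and 3144 were lower, 18.6%. Together 32.5% were called, and the values of the LPS and saline libraries did not overlap for 32.7% of genes. The labels name no animal or litter for a sample, so the p-values rest only on how far these 8 samples vary, which may in part be technical. Of the called genes, 1543 of the higher and 2450 of the lower changed by less than 0.5 on the log2 scale. Changes of at least 2-fold were more often increases: 398 genes (2.36%) were at least 2-fold higher and 169 (1.0%) at least 2-fold lower, and at 8-fold or more the counts were 71 and 3. With trends of GC content and transcript length removed, 2799 genes were higher and 2448 lower, so that 53.3% of the called genes were higher, against 42.6% before. The balance of small changes therefore depends on that correction, while the 2-fold counts were then 409 and 149.

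Large changes were concentrated at low levels of expression. Among 2582 genes with a mean log2 RPKM below 0, 176 were at least 2-fold higher and 95 at least 2-fold lower. Among 545 genes with a mean of 6 or more, 4 were at least 2-fold higher and 0 at least 2-fold lower. The median SE of a change fell from 0.16 to 0.033 between those bins, so smaller changes could be called in abundant transcripts. By gene type, 35.6% of 13788 protein-coding genes were called, 23.3% of 1599 long non-coding genes and 8.23% of 863 pseudogenes. Some genes passed the filter through one group alone, which makes a difference likely by construction: 211 passed only through LPS libraries, of which 193 were called higher, and 159 only through saline libraries, of which 129 were called lower.

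**Figure D1:**
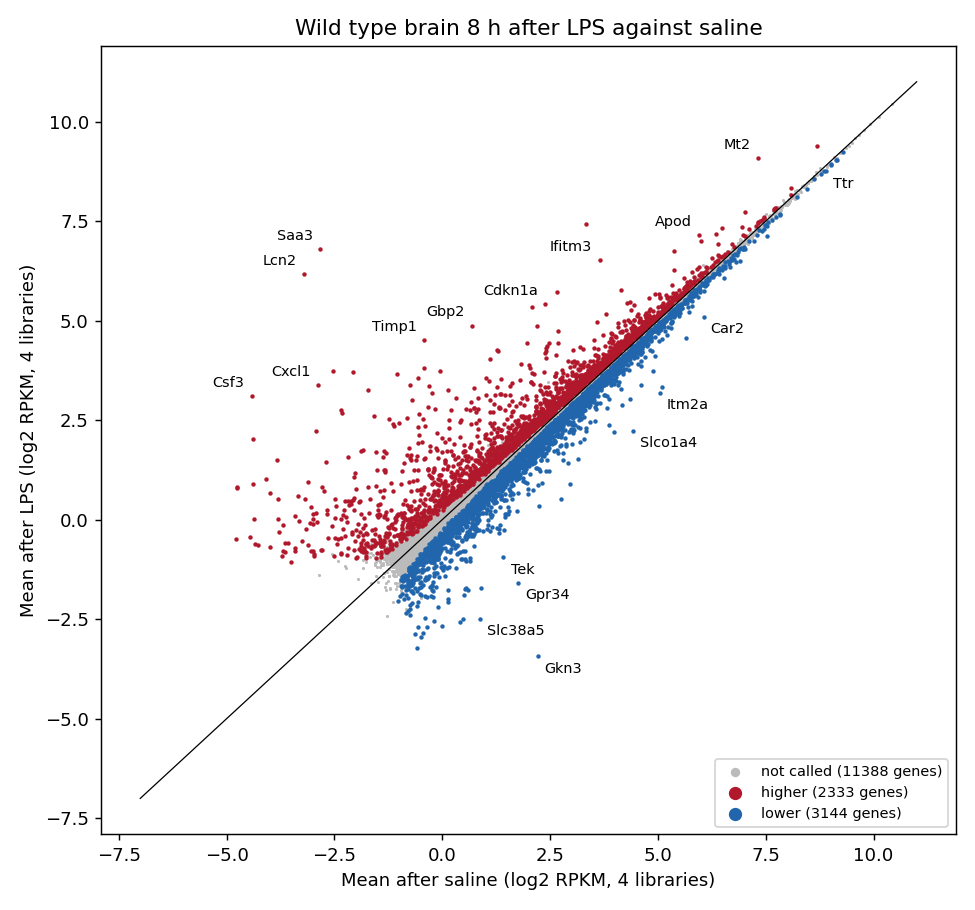
Mean log2 RPKM after saline (x axis) and after LPS (y axis) of 16865 genes, each mean over 4 libraries; the line marks equality. Genes called higher (red, 2333) spread far above the line at low saline levels, with Saa3, Lcn2 and Csf3 farthest, while most called genes, higher or lower (blue, 3144), lie close to the line.

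The largest increases were in genes nearly silent after saline. Saa3 (ENSMUSG00000040026, chromosome 7, 46711998 to 46715700, minus strand in GRCm38), an acute phase apolipoprotein, lay at 0.125, 0.0495, 0.270 and 0.232 RPKM after saline and at 98.2, 108, 106 and 140.0 RPKM after LPS. The Csf3 gene (ENSMUSG00000038067, chromosome 11, 98701263 to 98703629, plus strand), which encodes granulocyte colony-stimulating factor, lay at 0.0604, 0.0404, 0.0404 and 0.0484 and at 8.11, 8.32, 8.84 and 8.96 RPKM. In both, the highest LPS library was less than 1.5 times the lowest, and the saline values are so low that the size of the fold is poorly fixed: the log2 changes were 9.64 and 7.52, but 7.41 and 4.05 when 0.5 RPKM was added to every value. Timp1, an inhibitor of matrix metalloproteinases, lay above the filter in all 8 libraries, with 0.871, 0.758, 0.811 and 0.588 RPKM after saline and 21.99, 20.2, 21.6 and 28.1 after LPS (log2 change 4.93 ± 0.13, ± SE, n = 4 per group, as in parentheses from here on, and 4.22 with 0.5 added). Gbp2, a guanylate-binding GTPase induced by interferons, lay at 1.42, 1.46, 1.93 and 1.70 and at 31.4, 26.6, 23.3 and 38.3 RPKM (4.19 ± 0.15). Its lowest LPS library was above 10 times its highest saline library, and the same LPS library, replicate 4, was highest for Saa3, Timp1 and Gbp2.

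Increases of this size were not limited to cytokine genes. Plin4, which coats lipid droplets, rose from 0.354, 0.551, 0.497 and 0.565 to 12.6, 13.1, 13.1 and 11.95 RPKM (4.71 ± 0.13). Ch25h, which makes 25-hydroxycholesterol, rose from 0.364, 0.264, 0.293 and 0.299 to 9.18, 9.08, 9.16 and 10.8 RPKM (4.97 ± 0.10), and Steap4, a metalloreductase, from 0.139, 0.207, 0.270 and 0.206 to 6.74, 5.49, 5.88 and 8.03 RPKM (5.02 ± 0.19). Groups did not overlap in any of these, which the naming rule required. Slc10a6, a transporter of sulfated steroids, and Slfn4, a Schlafen gene of myeloid cells, lay below 0.1 RPKM in every saline library. They reached 1.40, 1.45, 1.78 and 2.67 RPKM and 2.06, 1.75, 1.76 and 1.91 RPKM. With 0.5 RPKM added, the log2 changes were 3.74 for Plin4, 3.64 for Ch25h, 3.31 for Steap4, 2.08 for Slc10a6 and 2.11 for Slfn4.

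The 25 largest decreases among named genes included genes of blood vessels and microglia and the activity-regulated genes Egr2 and Arc. Gkn3 (ENSMUSG00000030048, chromosome 6, 87383256 to 87388935, minus strand), a gastrokine that in mouse brain marks arterial endothelium, lay at 5.30, 4.16, 5.15 and 4.03 RPKM after saline and at 0.210, 0.0389, 0.0859 and 0.104 RPKM after LPS. Slc38a5 (ENSMUSG00000031170, chromosome X, 8271133 to 8280179, plus strand), an amino acid transporter, lay at 2.20, 1.62, 1.82 and 1.75 and at 0.232, 0.153, 0.204 and 0.141 RPKM. Every LPS library of both genes was under the filter of 0.5 RPKM, and the log2 changes were -5.64 and -3.36, or -3.08 and -1.78 with 0.5 added. Other large decreases began from higher levels. Itm2a, a membrane protein abundant in brain endothelium, fell from 34.3, 33.5, 31.4 and 32.7 to 9.54, 9.32, 8.16 and 9.30 RPKM (-1.86 ± 0.051, adjusted p = 5.73e-09 by limma). The organic anion transporter gene Slco1a4 fell from 20.96, 21.05, 21.3 and 22.1 to 5.29, 5.75, 3.35 and 4.86 RPKM (-2.18 ± 0.14). Serpinb1a, an inhibitor of neutrophil proteases, fell from 6.08, 7.13, 6.80 and 6.85 to 1.21, 1.40, 1.68 and 1.43 RPKM (-2.24 ± 0.093), and P2ry12, the microglial ADP receptor, from 7.72, 8.68, 7.28 and 7.51 to 1.98, 1.79, 2.16 and 1.52 RPKM (-2.07 ± 0.10). In bulk tissue, fewer cells of a type and less RNA per cell cannot be told apart, here and in every result on a cell type's genes that follows.

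**Figure D2:**
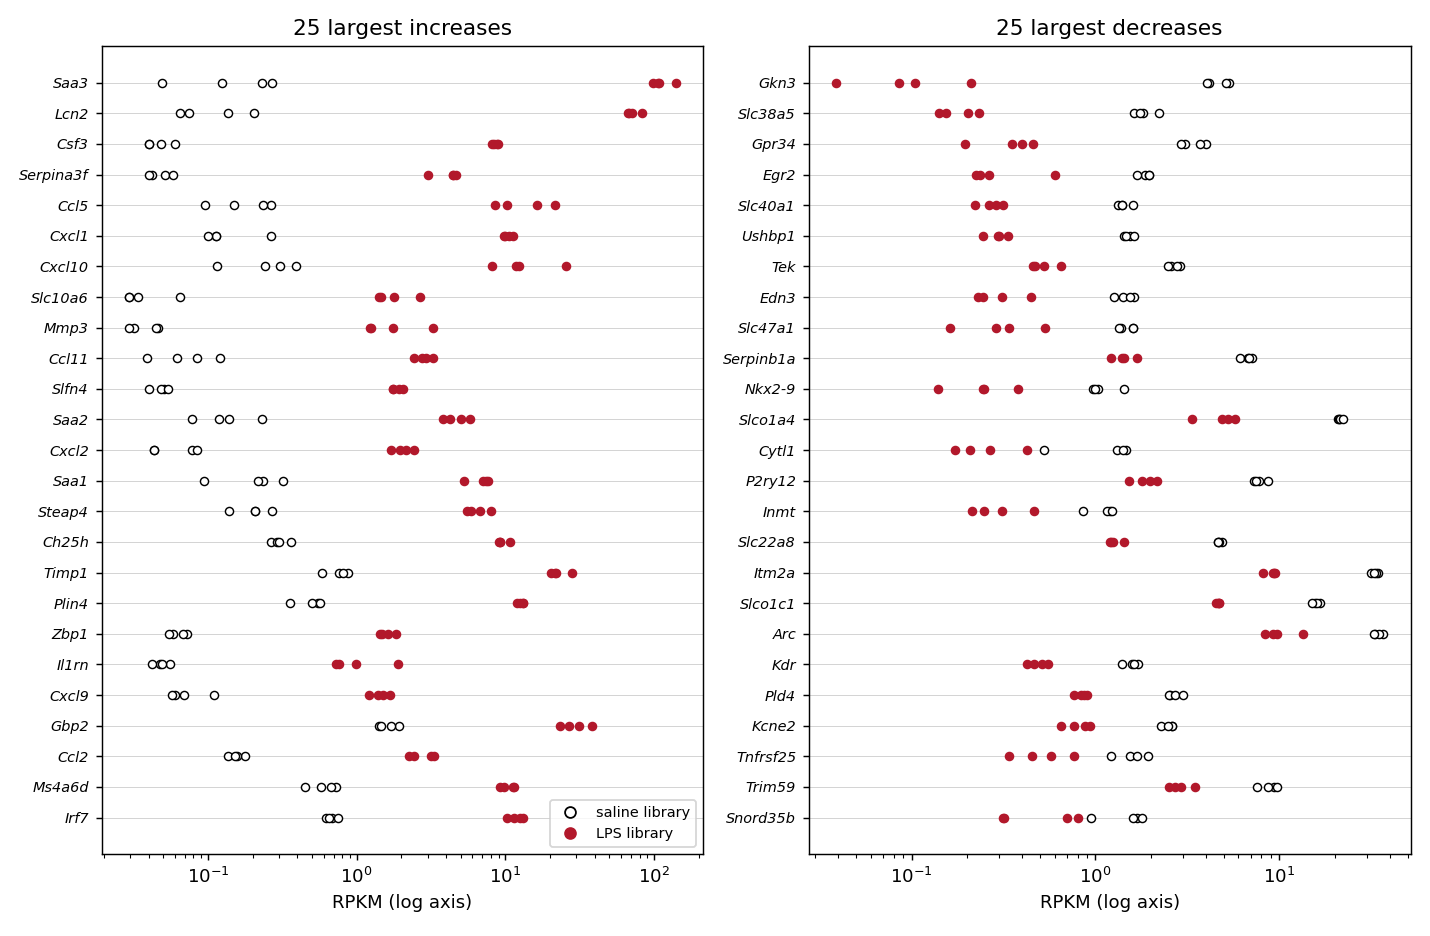
RPKM on a log axis in each saline library (open circles) and LPS library (red) for the 25 largest increases and the 25 largest decreases among named genes. Saline values of most increased genes lie below 0.5 RPKM, and Gbp2, Irf7, Timp1 and Ch25h form tight clusters in both groups, whereas Cxcl10 and Ccl5 spread over more than 2-fold after LPS.

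Motifs of the transcription factors that LPS, interferons and glucocorticoids act through were counted in promoter letters. RefSeq promoters on GRCm38.p6 were matched by symbol for 11381 of 16865 tested genes (14585 windows, since a gene can have several starts, whose windows can overlap), and the 250 bases before the start were searched on both strands. The NF-kB motif (GGG and TTTCC, 2 bases apart) was present in 1.36% of windows of tested genes (1.41% of all windows), in 5.69% of those of genes at least 2-fold higher, in 13.8% of those at least 8-fold higher and in 0.84% of those at least 2-fold lower. For the interferon-stimulated response element (GAAA repeated after 2 bases) the shares were 2.56% (2.98% of all windows), 11.4%, 12.1% and 1.68%. For the glucocorticoid response element (ACA and TGT 3 bases apart, then any base and C) they were 1.87% (2.61% of all windows), 3.89%, 13.8% and 0%, and for the STAT motif TTCCNGGAA 0.946% (0.913% of all windows), 3.29%, 3.45% and 0%. The C/EBP motif TTGCNNAA stood in 7.38% (9.56% of all windows), 11.98%, 20.7% and 10.9%. The E-box CACGTG, in 7.95% of windows of tested genes (6.02% of all windows), stood in 5.39% of windows of genes at least 2-fold higher and in 0 of the 58 windows at least 8-fold higher, and the cAMP response element TGACGTCA in 2.45% (1.55% of all windows), 1.80% and 1.72%. These are shares of letters in reference sequence, not sites shown to be bound, and windows of 1 gene are not independent.

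Promoter windows of 5 strongly raised genes, 250 bases read 5′ to 3′ on the gene's strand up to the RefSeq start, show these motifs in place, with every searched motif in capitals.
Cxcl1: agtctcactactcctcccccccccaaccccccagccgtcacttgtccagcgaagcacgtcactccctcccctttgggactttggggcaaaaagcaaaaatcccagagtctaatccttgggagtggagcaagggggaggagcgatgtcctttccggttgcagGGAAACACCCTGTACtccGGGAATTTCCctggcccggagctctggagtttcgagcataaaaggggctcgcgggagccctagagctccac
Cxcl2: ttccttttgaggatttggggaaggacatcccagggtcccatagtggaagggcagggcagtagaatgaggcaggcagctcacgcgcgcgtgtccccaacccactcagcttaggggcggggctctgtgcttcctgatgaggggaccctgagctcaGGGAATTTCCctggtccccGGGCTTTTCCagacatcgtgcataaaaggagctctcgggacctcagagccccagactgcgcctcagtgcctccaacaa
Gbp2: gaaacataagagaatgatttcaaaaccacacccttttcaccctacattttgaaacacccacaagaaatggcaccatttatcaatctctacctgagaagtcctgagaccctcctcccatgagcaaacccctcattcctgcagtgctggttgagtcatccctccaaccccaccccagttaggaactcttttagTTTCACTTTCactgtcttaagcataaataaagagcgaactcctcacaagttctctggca
Slc10a6: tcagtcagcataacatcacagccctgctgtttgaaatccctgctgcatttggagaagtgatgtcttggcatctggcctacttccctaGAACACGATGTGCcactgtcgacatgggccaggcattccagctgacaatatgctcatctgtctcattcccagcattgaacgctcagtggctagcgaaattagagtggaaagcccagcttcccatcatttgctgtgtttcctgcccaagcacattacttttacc
Saa3: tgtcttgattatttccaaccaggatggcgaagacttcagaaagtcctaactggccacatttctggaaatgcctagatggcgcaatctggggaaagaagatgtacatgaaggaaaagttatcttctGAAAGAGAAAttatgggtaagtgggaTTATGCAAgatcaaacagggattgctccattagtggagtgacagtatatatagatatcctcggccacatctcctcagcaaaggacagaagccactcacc
Those of the neighbouring neutrophil chemokine genes Cxcl1 (chr5:90890995-90891244, plus strand) and Cxcl2 (chr5:90903649-90903898, plus strand) each hold 2 NF-kB motifs, with first bases at -89 and -71 in Cxcl1 and at -97 and -78 in Cxcl2, where -1 is the base before the start. In Cxcl1 the capitals of the upstream NF-kB motif run on into an overlapping glucocorticoid motif. The window of Gbp2 (chr3:142620413-142620662, plus strand) holds an interferon-stimulated element at -59. That of Slc10a6 (chr5:103629404-103629653, minus strand) holds 2 overlapping glucocorticoid matches at -163 and -161. In Saa3 (chr7:46715677-46715926, minus strand) an interferon-stimulated element at -125 and a C/EBP motif at -99 were found. Other strongly raised genes lacked them: the windows of Slfn4, Timp1, Plin4, Cxcl9 and Irf7 held 0 searched motifs. Some genes that fell had motifs too. The windows of Slc38a5 and P2ry12 each held a C/EBP motif and an E-box, and 1 window of Tnfrsf25 held an NF-kB motif.

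Genes for sensing LPS moved unevenly along the pathway. Tlr4 itself was below the filter. The co-receptor gene Cd14 rose from 0.999, 1.01, 1.13 and 1.28 to 8.41, 8.66, 9.81 and 12.1 RPKM (3.13 ± 0.12), and Lbp, whose product hands LPS to CD14, rose by 1.52 ± 0.072, while Ly96, which encodes MD-2, was not called (0.15 ± 0.17). Of 17 receptor and adaptor genes tested, 8 rose and 3 fell, of which Traf3 and Tab2 were not called with GC and length trends removed. The adaptor gene Myd88 rose by 1.004 ± 0.082 and the inhibitory kinase gene Irak3 by 2.19 ± 0.13 (1.25 with 0.5 added). Sigirr, an inhibitory receptor of TLR and IL-1 signals, fell from a geometric mean of 0.877 to 0.398 RPKM (-1.14 ± 0.15), and the kinase gene Map3k7 was not called (0.016 ± 0.029). Among other pattern receptors, 10 of 15 tested rose and 0 fell, with 10 more below the filter and 4 of the tested passing through LPS libraries alone. They included Tlr2 (0.609 to 2.82 RPKM), the formyl peptide receptor gene Fpr1 (0.878 to 2.46 RPKM), and the RNA sensor genes Ddx58 (0.861 to 2.29 RPKM) and Ifih1 (0.666 to 1.67 RPKM).

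In the NF-kB system the largest increases were in IkB genes and the kinase gene Map3k8, and the subunit genes rose less or were not called. Nfkbia, which encodes the inhibitor IkB-alpha and is itself an NF-kB target, rose from 9.23, 12.8, 11.8 and 14.7 to 32.5, 33.5, 29.4 and 30.7 RPKM (1.40 ± 0.12). The nuclear IkB genes Bcl3 (0.144 to 1.77 RPKM) and Nfkbiz (1.01 to 2.41 RPKM) and the subunit genes Nfkb2 (1.12 ± 0.10) and Relb (0.56 ± 0.11) also rose, Rela rose by 0.21 ± 0.043, and Nfkb1 was not called (0.12 ± 0.07). In all, 9 of 15 members tested rose and 1 fell, 2 having passed the filter through LPS libraries alone, and the single decrease was not called with GC and length trends removed. Among brakes on the pathway, 6 of 17 rose and 4 fell, or 6 and 2 with GC and length trends removed. Over all genes tested 13.8% rose and 18.6% fell, so the decreases were near the share over all genes. The mRNA decay factor gene Zfp36 rose from 3.01, 2.20, 2.37 and 2.84 to 11.99, 12.4, 10.6 and 11.6 RPKM (2.17 ± 0.097), and the ubiquitin-editing gene Tnfaip3 rose by 1.01 ± 0.10. The members that fell were MAP kinase phosphatase genes, Dusp1, Dusp4, Dusp5 and Dusp6, of which Dusp6 fell most (11.3 to 7.70 RPKM, -0.55 ± 0.073). The call of Dusp5 (-0.35 ± 0.12) was lost in 8 alternatives: with GC and length trends removed, without the variance trend, and without LPS replicate 1, 2 or 3 or saline replicate 2, 3 or 4.

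Chemokine genes that attract neutrophils, monocytes and T cells were among those that rose. Among neutrophil attractants, Cxcl1 rose from 0.113, 0.113, 0.0996 and 0.266 to 10.5, 9.89, 9.82 and 11.3 RPKM and Cxcl2 from 0.0779, 0.0840, 0.0436 and 0.0436 to 1.70, 2.42, 2.14 and 1.96 RPKM, so the 4 LPS libraries spanned less than 1.5-fold in each. Cxcl10 and Cxcl9, ligands of the T cell receptor CXCR3, varied more. Cxcl10 lay at 0.390, 0.241, 0.115 and 0.306 RPKM after saline and at 12.3, 11.9, 8.07 and 25.4 RPKM after LPS, where replicate 4 was 3 times replicate 3. Ccl5 lay at 0.265, 0.0956, 0.151 and 0.235 and at 16.3, 10.3, 8.47 and 21.7 RPKM, again with replicate 4 highest. Of 17 tested CC chemokine and receptor genes, 13 rose and 1 fell, but 7 of the 17 passed the filter through LPS libraries alone. The monocyte attractant genes Ccl2 (0.155 to 2.75 RPKM) and Ccl7 (0.121 to 1.26 RPKM) and the eotaxin gene Ccl11 (0.0703 to 2.82 RPKM) were among those that rose (geometric means after saline and after LPS, as for each pair of levels from here on). Cxcl12, a homeostatic chemokine that retains leukocytes and guides neural cells, fell from 8.04, 7.19, 7.37 and 7.53 to 2.66, 2.67, 2.72 and 2.62 RPKM (-1.50 ± 0.045, adjusted p = 1.04e-08 by limma), while Cx3cl1, the neuronal ligand of the microglial receptor, was not called (-0.13 ± 0.054).

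Cytokine genes themselves were mostly too low to test, whereas their receptors were measured. Il1a, Il1b, Tnf, Il6, Ifnb1 and Ifng were below the filter. The receptor genes Il1r1 (0.902 to 3.50 RPKM, 1.96 ± 0.12), Tnfrsf1a (2.57 to 8.94 RPKM, 1.80 ± 0.058) and Osmr (0.386 to 2.998 RPKM) rose, as did Il4ra from 1.39, 1.23, 1.42 and 1.41 to 5.70, 5.96, 5.06 and 5.96 RPKM (2.06 ± 0.072). The decoy receptor gene Il1r2 and the antagonist gene Il1rn reached 0.583, 0.624, 0.645 and 0.744 and 0.992, 0.726, 0.757 and 1.90 RPKM from below 0.3 RPKM in every saline library. The shared receptor gene Il6st rose by only 0.17 ± 0.046 and Lifr by 0.21 ± 0.054, and both interleukin-10 receptor genes fell (-0.61 ± 0.10 for Il10ra and -0.57 ± 0.075 for Il10rb). Il18, the most abundant interleukin-1 family gene tested, was not called (22.05 to 23.1 RPKM, 0.066 ± 0.048), and neither was Il1rap (0.04 ± 0.043). Downstream, 10 of 20 JAK, STAT and SOCS genes rose and 2 fell (9 and 1 with GC and length trends removed). Socs3, which ends gp130 signalling, rose from 0.759, 0.659, 0.726 and 0.615 to 5.68, 6.19, 6.33 and 7.05 RPKM (3.20 ± 0.087; 2.52 with 0.5 added), and Stat3 from 3.62, 3.96, 3.90 and 3.85 to 8.45, 8.33, 8.23 and 9.83 RPKM (1.18 ± 0.06). Stat5b (3.96 to 3.96 RPKM) and Stat6 (1.80 to 1.79 RPKM) were not called.

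Interferon-induced genes rose without exception among those tested in the effector lists. All 10 tested guanylate-binding and immunity-related GTPase genes rose, with 6 more below the filter, as did the 25 tested antiviral effector genes. The median changes were 2.42 and 2.40, against -0.025 over all genes tested. None of the GTPase genes and 9 of the effector genes passed the filter through LPS libraries alone. In the 16-library fit 1 of the effector genes was no longer called. Among the more abundant members, Ifitm3, a membrane protein that blocks viral entry, rose from 12.8, 10.8, 12.8 and 14.1 to 98.7, 87.7, 76.1 and 105 RPKM (2.86 ± 0.10), Ifit3 from 4.19, 3.53, 3.48 and 4.54 to 21.2, 19.97, 16.5 and 31.1 RPKM (2.47 ± 0.17) and Isg15, a ubiquitin-like modifier, from 2.71, 2.04, 2.48 and 2.63 to 19.2, 18.5, 15.1 and 23.9 RPKM (2.95 ± 0.13). Of the regulators, Irf7 rose from 0.685, 0.623, 0.751 and 0.655 to 13.05, 11.4, 10.3 and 12.6 RPKM (adjusted p = 1.2e-09 by limma), Irf1 by 1.04 ± 0.11 and Irf9 by 0.62 ± 0.10. Irf3, which acts before new transcription, was not called (-0.11 ± 0.075), and the receptor gene Ifnar1 fell (-0.27 ± 0.051). Psmb8, an immunoproteasome subunit gene, rose from 0.953, 0.805, 1.06 and 0.875 to 3.29, 3.15, 2.94 and 4.23 RPKM (1.88 ± 0.12), and the constitutive counterpart Psmb5 was not called (-0.061 ± 0.035).

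MHC class II genes fell while the co-stimulatory or inhibitory ligand genes Cd274, Cd86 and Icosl rose. H2-Eb1 fell from 2.94, 2.73, 2.36 and 3.12 to 1.53, 1.40, 1.26 and 1.51 RPKM (-0.96 ± 0.097), as did H2-Aa (-0.92 ± 0.14) and H2-Ab1 (-0.76 ± 0.13), and the invariant chain gene Cd74 was not called (6.52 to 6.09 RPKM). Cd274, which encodes PD-L1, rose from 0.575, 0.502, 0.614 and 0.482 to 2.76, 2.37, 2.26 and 3.55 RPKM, a log2 change of 2.32 ± 0.15 (1.62 with 0.5 added), and Cd86, a ligand of CD28, from 0.395 to 1.05 RPKM. Beside the class II genes, the summed level of 6 B cell markers went from a range of 19.6 to 22.5 RPKM to one of 15.5 to 18.6 RPKM, with 5 of the 6 under 0.5 RPKM in every library, among them Cd79a and Ms4a1. Its part in the class II result was not tested.

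Each of the 11 tested acute phase genes rose at least 2-fold, but 8 of them passed through LPS libraries alone and 13 more were below the filter. Serpina3n, an extracellular protease inhibitor of reactive astrocytes, rose from 5.99, 6.17, 6.85 and 6.39 to 55.8, 47.4, 44.2 and 67.9 RPKM (3.06 ± 0.11), and the plasma protease inhibitor gene A2m from 3.25, 3.15, 3.81 and 3.82 to 10.97, 9.74, 11.6 and 13.98 RPKM (1.72 ± 0.11). Of 17 complement genes tested, 13 rose and 1 fell, but 5 passed the filter through LPS libraries alone, and under the stricter filter 7 of 11 rose. The largest RNA gain was in C1qb, a chain of the initiating C1q complex, from 32.2, 35.9, 30.6 and 31.4 to 53.7, 49.4, 51.1 and 49.1 RPKM (0.65 ± 0.05). Its partner C1qa rose less (0.32 ± 0.043) and the third chain gene, C1qc, was not called (0.066 ± 0.056). The regulator gene Serping1 (3.92 to 8.17 RPKM) rose, and properdin (Cfp) fell (8.09 to 6.31 RPKM, -0.36 ± 0.067). Metallothionein genes gained the most RNA of any named gene: Mt2 rose from 140.0, 161, 171 and 173 to 551, 535, 508 and 568 RPKM (1.75 ± 0.063) and Mt1 from 384, 422, 429.6 and 429.6 to 687, 630.2, 630.2 and 722 RPKM (0.68 ± 0.051). The brain metallothionein gene Mt3 was not called (412 to 403 RPKM), and the zinc importer gene Slc39a14 rose (2.23 to 5.11 RPKM).

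Blood-brain barrier transporters fell more often than they rose. All 27 listed genes were tested: 17 fell, 8 of them at least 2-fold, and 5 rose, with a median change of -0.36. Of these genes, 3 passed the filter through saline libraries alone and 1 through LPS libraries alone. Slco1c1, which carries thyroxine and organic anions, fell from 16.7, 15.7, 15.99 and 15.03 to 4.69, 4.51, 4.68 and 4.62 RPKM (-1.78 ± 0.038, adjusted p = 1.5e-09 by limma). Slc22a8, an organic anion exporter, fell from 4.91, 4.69, 4.63 and 4.64 to 1.43, 1.25, 1.20 and 1.21 RPKM (-1.89 ± 0.065), and the drug efflux pump gene Abcb1a from 3.44, 3.22, 3.28 and 3.30 to 1.16, 1.15, 0.983 and 1.35 RPKM (-1.52 ± 0.089). The 4 LPS libraries of each lay below every saline library. The thiamine transporter gene Slc19a3 fell (-1.57 ± 0.14), and Abcg2, the other major efflux pump gene of the barrier, fell too (-0.46 ± 0.078). Among the members that rose, the glucose transporter gene Slc2a1 rose from 19.9, 25.1, 23.3 and 24.5 to 37.4, 36.9, 36.96 and 33.5 RPKM (0.65 ± 0.068), and Mfsd2a, which carries lysophospholipids and limits transcytosis, from 4.22, 5.17, 5.73 and 5.62 to 13.4, 13.6, 13.5 and 11.97 RPKM (1.35 ± 0.09). The transferrin receptor gene Tfrc was not called (14.9 to 14.7 RPKM, -0.025 ± 0.061). Of 10 endothelial markers, 6 fell and 3 rose, and their summed level went from a range of 118 to 126 RPKM to one of 75.1 to 80.6 RPKM. Itm2a and Slco1a4 made up most of that difference, and Slco1a4 is also on the transporter list. Without both, left out after their values were seen, the sums were 63.1 to 72.8 RPKM and 60.6 to 69.1 RPKM, which overlapped. The part of the endothelial sum in the transporter result was not tested.

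Most receptor genes for angiopoietins and VEGF fell, while ligand genes moved both ways: Angpt2, Angptl4 and Pgf rose, and Vegfa and Angptl2 fell. Angpt2, the context-dependent antagonist ligand of TIE2, rose from 0.658, 0.658, 0.762 and 0.632 to 5.29, 4.90, 5.21 and 4.80 RPKM (2.90 ± 0.074; 2.24 with 0.5 added). Tek, which encodes TIE2, fell from 2.87, 2.58, 2.78 and 2.49 to 0.455, 0.526, 0.653 and 0.467 RPKM (adjusted p = 2.85e-07 by limma), and Tie1 from 2.13, 2.25, 2.26 and 2.21 to 0.864, 0.976, 0.810 and 0.888 RPKM (-1.33 ± 0.076). Ptprb, the phosphatase that acts on TIE2, fell from 4.44, 4.87, 4.10 and 3.88 to 1.71, 1.73, 1.55 and 1.74 RPKM (-1.36 ± 0.076). The VEGF receptor gene Kdr fell from 1.71, 1.57, 1.61 and 1.39 to 0.464, 0.554, 0.426 and 0.514 RPKM, Flt1, the second VEGF receptor gene, fell (-0.36 ± 0.05) and the lymphatic-type receptor gene Flt4 rose (0.52 ± 0.11). The ligand genes Angptl4, of a related family, and Pgf, placental growth factor, rose from 0.455 to 5.27 RPKM and from 2.08 to 4.05 RPKM. The agonist gene Angpt1 was not called (0.17 ± 0.083). Angptl2 changed by -1.73. With 0.5 RPKM added, the log2 changes were -1.64 for Tek, -1.06 for Kdr and -0.84 for Angptl2. In the list as a whole, 5 of 20 genes rose and 13 fell, 1 of the genes having passed the filter through saline libraries alone.

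Among arterial, SOXF and Notch genes, decreases were more frequent than increases, as over all genes tested (18.6% lower and 13.8% higher). Sox17 fell from 0.927, 0.962, 0.889 and 0.956 to 0.224, 0.260, 0.183 and 0.222 RPKM, Sox18 from 2.86, 2.36, 3.19 and 2.59 to 1.32, 1.11, 1.01 and 1.001 RPKM (-1.31 ± 0.12) as did the ETS factor gene Fli1 (-1.01 ± 0.13), while the third SOXF gene, Sox7, was not called (0.016 ± 0.25). Of 26 arterial, SOXF and Notch genes tested, 14 fell and 2 rose, with 3 having passed the filter through saline libraries alone; under the stricter filter 11 of 20 fell. The Notch ligand gene Jag1 fell (-0.63 ± 0.071) and Dll4 rose (0.65 ± 0.11), and the receptor gene Notch1 was not called (0.04 ± 0.065). Sox17 changed by -2.08, or -0.99 with 0.5 RPKM added.

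**Figure D3:**
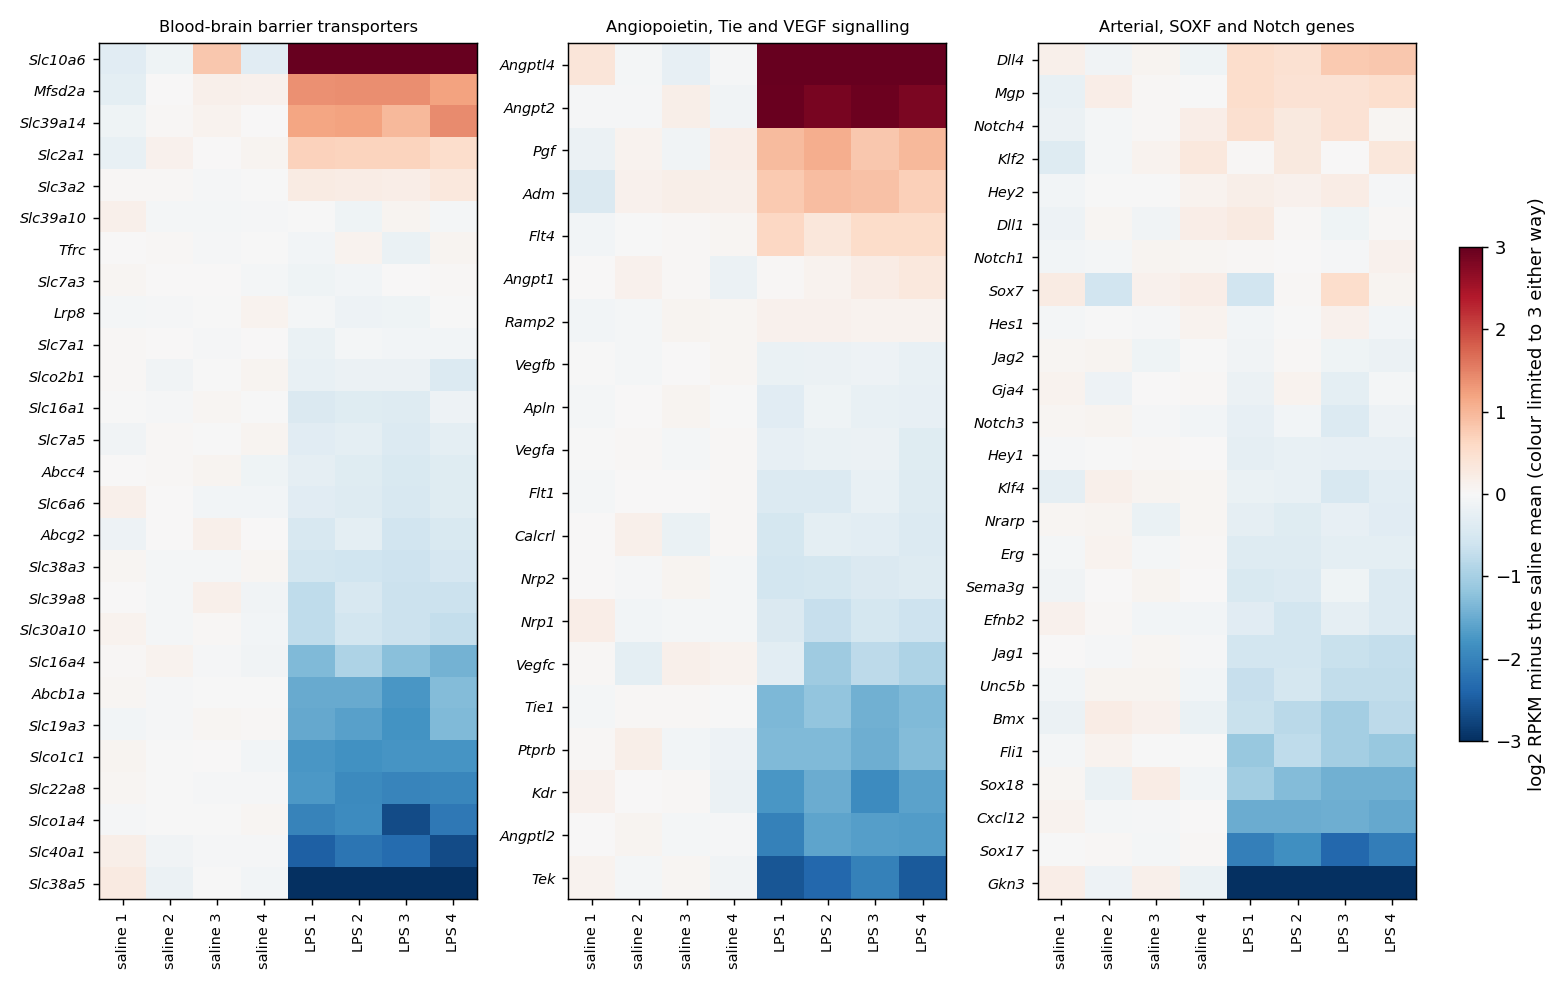
Log2 RPKM minus the saline mean (colour, limited to 3 either way) in each of 8 libraries for the tested members of 3 vascular lists, ordered by change. LPS libraries share the direction for the strongest members of each list, such as Angpt2 (2.90) and Tek (-2.36), and saline libraries stay near 0.

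Junction genes moved in both directions but fell more often, as did all genes tested (18.6% lower and 13.8% higher). Of 18 junction and caveolar genes tested, 8 fell and 2 rose. Cdh5, which encodes VE-cadherin, rose from 2.52, 2.47, 1.94 and 2.34 to 5.08, 5.11, 5.95 and 5.27 RPKM (1.21 ± 0.087), while Cldn5, the main claudin of brain endothelium, fell from 42.5, 37.2, 44.3 and 35.5 to 28.3, 26.4, 32.3 and 26.2 RPKM (-0.49 ± 0.083). Cav1, the caveolar coat gene, fell from 4.23, 3.83, 3.94 and 3.97 to 1.59, 1.54, 1.44 and 1.69 RPKM (-1.35 ± 0.063), and the occludin gene Ocln fell (-0.43 ± 0.08). Plvap, a marker of fenestrated endothelium, was not called (3.87 to 4.03 RPKM). Adhesion molecules were as uneven. Icam1 rose from 0.903, 0.799, 0.876 and 0.980 to 6.10, 6.84, 7.35 and 7.16 RPKM (2.95 ± 0.079) and Vcam1 by 0.44 ± 0.063, Icam2 fell (-0.77 ± 0.097), Pecam1 was not called (-0.062 ± 0.065), and Sele was below the filter. Selp, which encodes P-selectin, reached 0.662, 0.633, 0.815 and 0.781 RPKM from below 0.1 RPKM in every saline library.

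Coagulation and mural cell genes also differed by member. The urokinase receptor gene Plaur rose from 0.303, 0.495, 0.344 and 0.623 to 5.25, 5.13, 6.89 and 5.85 RPKM (3.76 ± 0.21; 2.74 with 0.5 added), tissue factor (F3) from 15.3, 16.3, 15.4 and 17.3 to 23.9, 24.6, 25.7 and 23.5 RPKM (0.60 ± 0.044) and the anticoagulant cofactor gene Pros1 by 0.75 ± 0.066. Vwf, which tethers platelets, fell from 1.44, 1.49, 1.60 and 1.47 to 0.734, 0.738, 0.672 and 0.814 RPKM (-1.02 ± 0.088). Of 17 genes of this group tested, 9 rose and 2 fell (9 and 1 with GC and length trends removed), 1 having passed the filter through LPS libraries alone. Over all genes tested 18.6% fell and 13.8% rose. Of 19 pericyte and smooth muscle genes tested, 11 fell and 2 rose (4 rose with GC and length trends removed), 1 having passed the filter through saline libraries alone. Those that fell included the contractile genes Acta2 (15.2 to 11.1 RPKM, -0.45 ± 0.061) and Myh11 (-0.65 ± 0.093) and the pericyte genes Vtn (32.8 to 22.5 RPKM) and Anpep (-1.21 ± 0.15). Art3, a pericyte gene, and Rgs16, a regulator of G protein signalling, rose (0.85 ± 0.13 and 0.20 ± 0.05), and the receptor gene Pdgfrb, on both cell types, was not called (0.16 ± 0.068).

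Most microglial markers fell, while the list of Fc and other myeloid receptor genes held increases and decreases. 9 of 10 microglial markers fell and 0 rose, and their summed level went from a range of 82.9 to 86.9 RPKM to one of 54.1 to 62.01 RPKM. Gpr34 fell from 3.97, 3.69, 3.07 and 2.93 to 0.196, 0.353, 0.456 and 0.399 RPKM, the fractalkine receptor gene Cx3cr1 from 6.65, 6.35, 6.33 and 6.25 to 2.87, 2.65, 3.72 and 3.67 RPKM (-1.001 ± 0.10) and the lipid-sensing receptor gene Trem2 fell as well (-0.79 ± 0.076). Gpr34 changed by -3.34, or -2.20 with 0.5 added. Among other genes of these cells, the growth factor receptor gene Csf1r fell slightly (-0.13 ± 0.035), and the adaptor gene Tyrobp was not called (13.9 to 13.99 RPKM). Of 18 tested Fc, ITAM and myeloid receptor genes 11 rose and 4 fell, 6 having passed the filter through LPS libraries alone. The activating receptor gene Fcgr3 rose from 2.99, 2.88, 3.04 and 2.97 to 8.96, 8.47, 8.71 and 8.87 RPKM (1.56 ± 0.038, adjusted p = 2.85e-09 by limma), Fcer1g by 0.99 ± 0.068, and Fcgr4 reached 2.19, 1.58, 1.85 and 2.13 RPKM from below 0.3 RPKM in every saline library. Markers of blood leukocytes stood beside these: neutrophil markers summed to 4.41 to 10.7 RPKM after saline and 12.6 to 19.2 RPKM after LPS, with 7 of 14 under 0.5 RPKM in every library, among them Ly6g, Elane, Mpo and Cxcr2. S100a8 and S100a9 carried most of the difference in the sums. Without them, left out after their values were seen, the sums were 2.18 to 3.97 RPKM and 3.39 to 3.90 RPKM, which overlapped. Of the other neutrophil markers tested, Il1r2 was called higher (2.48), having passed the filter through LPS libraries alone. Csf3r was called lower (-0.57 ± 0.12) and Ngp was not called (0.96 ± 0.49). Monocyte and macrophage markers summed to 4.12 to 4.53 and 5.04 to 5.67 RPKM, with 7 of 12, including Ccr2, under 0.5 RPKM in every library. Most of that difference was Ly6c2, called higher (1.05), and Plac8, which was not tested. The part of these leukocyte markers in the Fc receptor result was not tested.

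**Figure D4:**
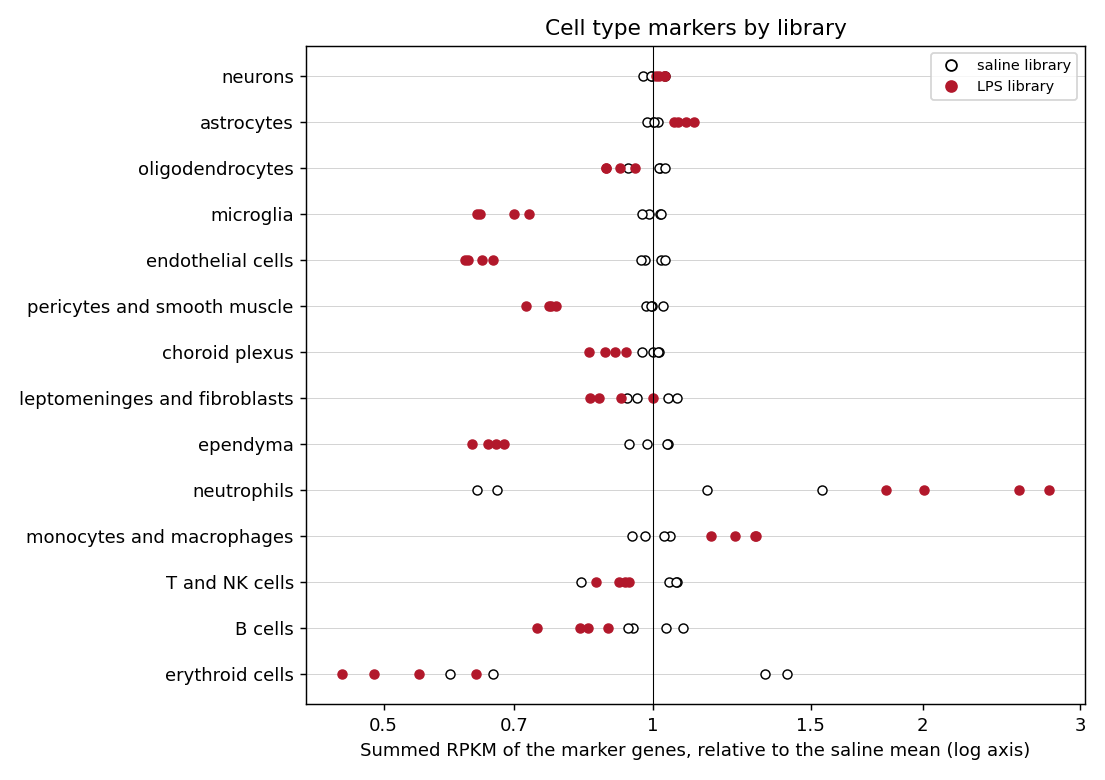
Summed RPKM of the markers of 14 cell types in each saline library (open) and LPS library (red), relative to the saline mean, on a log axis. Microglial, endothelial, pericyte, choroid plexus, ependymal and B cell sums lay lower in every LPS library than in any saline library. Astrocyte, neutrophil and monocyte sums lay higher, and neuronal sums overlapped. The ependymal, endothelial, neutrophil, astrocyte, monocyte, choroid plexus and B cell differences rest mostly on 1 or 2 genes each. For astrocytes these are Gjb6 and Aldoc, and for monocytes Ly6c2 and Plac8. For choroid plexus these are Ttr and Enpp2, and the call of Ttr (-0.15) was lost with GC and length trends removed and in the 16-library fit.

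Astrocyte genes rose more often than they fell, and genes of the oligodendrocyte lineage fell more often than they rose. Of 23 astrocyte genes 8 rose and 3 fell, and of 18 lineage genes 4 rose and 8 fell. Over all genes tested 13.8% rose and 18.6% fell. Gfap rose from 36.4, 42.5, 41.1 and 45.3 to 106, 98.01, 114 and 116 RPKM (1.39 ± 0.069), the gap junction gene Gjb6 from 28.2, 31.1, 31.2 and 32.6 to 48.2, 51.6, 54.8 and 48.1 RPKM (0.72 ± 0.053) and glutamine synthetase (Glul) by 0.23 ± 0.03. Not called were the water channel gene Aqp4 (-0.023 ± 0.048), the glutamate transporter gene Slc1a2 (0.012 ± 0.043) and the connexin gene Gja1 (-0.034 ± 0.034), but the potassium channel gene Kcnj10 fell (-0.20 ± 0.042). In the oligodendrocyte lineage, Sox10 fell from 11.9, 12.01, 11.2 and 11.3 to 6.08, 5.43, 5.89 and 5.13 RPKM (-1.04 ± 0.056) and Gpr17, of newly forming cells, from 4.48, 4.61, 4.40 and 4.44 to 2.40, 2.23, 3.68 and 1.81 RPKM (-0.88 ± 0.17). Myrf, the regulator of myelin genes, rose (0.38 ± 0.051), as did the progenitor receptor gene Pdgfra (0.33 ± 0.048), and Olig1 was not called (57.2 to 57.97 RPKM). Car2, carbonic anhydrase of myelinating cells, fell from 64.9, 70.7, 63.9 and 67.2 to 33.3, 34.04, 35.4 and 34.1 RPKM (-0.96 ± 0.035, adjusted p = 3.14e-08 by limma). Ependymal markers summed to 54.1 to 59.8 RPKM after saline and 36.1 to 39.2 RPKM after LPS, with 3 of 7 tested called lower and 0 called higher. Most of that difference was Pltp, a phospholipid transfer protein gene: without it, left out after its values were seen, the sums were 25.1 to 30.9 RPKM and 23.7 to 25.1 RPKM, which overlapped.

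In lipid mediator, redox and matrix groups, some members rose strongly beside others that fell or were not called. Of 17 lipid mediator genes tested 5 rose and 4 fell, of 22 redox and metal response genes 12 and 2, and of 18 matrix genes 8 and 3. Over all genes tested 13.8% rose and 18.6% fell. Of these members, 2 redox and metal response genes and 3 matrix genes passed the filter through LPS libraries alone. Ptgs2, the inducible prostaglandin synthase, rose from 1.76, 1.68, 1.81 and 1.61 to 6.10, 7.06, 5.96 and 6.99 RPKM (1.93 ± 0.069) and its partner Ptges by 1.05 ± 0.073, whereas Ptgs1 was not called (-0.17 ± 0.083) and Ptgds, the abundant prostaglandin D synthase gene, lay at 392 to 395 RPKM and was not called. Nos2 and Acod1 were below the filter. Heme oxygenase 1 (Hmox1) rose from 1.46, 1.48, 1.68 and 1.64 to 3.58, 3.39, 3.12 and 4.24 RPKM (1.19 ± 0.094) and the NRF2 gene Nfe2l2 by 0.36 ± 0.057, while the NRF2 target Nqo1 was not called (-0.15 ± 0.057). Among matrix genes, Adamts1 rose from 1.62, 1.70, 1.77 and 1.56 to 6.71, 6.66, 6.91 and 7.84 RPKM (2.08 ± 0.065) and Lox, which cross-links collagen, reached 1.63, 1.37, 1.90 and 1.96 RPKM from below 0.5. Mmp2 fell (-0.84 ± 0.15), and Timp2, the most abundant inhibitor, was not called (47.3 to 45.8 RPKM). Col4a1, a basement membrane collagen, rose from 4.18, 4.20, 4.16 and 4.08 to 11.5, 11.1, 10.8 and 10.96 RPKM (1.42 ± 0.035, adjusted p = 2.89e-09 by limma).

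Several regulators rose with little spread between libraries. Fkbp5, a glucocorticoid-induced chaperone, had the smallest p of all named genes and rose from 4.42, 4.59, 4.71 and 4.58 to 30.4, 28.8, 27.9 and 29.99 RPKM (2.68 ± 0.037, adjusted p = 9.98e-11 by limma). The cell cycle inhibitor gene Cdkn1a rose from 4.63, 5.55, 5.16 and 5.71 to 41.8, 46.96, 41.01 and 42.6 RPKM (3.04 ± 0.067), and Apod, a lipocalin of glia, from 58.6, 62.9, 63.04 and 62.02 to 142, 141, 145 and 139.5 RPKM (1.20 ± 0.028). Of the C/EBP transcription factor genes, 3 rose: Cebpd from 1.78, 2.55, 2.47 and 3.04 to 19.3, 16.9, 18.9 and 22.4 RPKM (2.99 ± 0.14), Cebpb by 1.51 ± 0.10 and Cebpa by 1.37 ± 0.062, while Cebpg (0.031 ± 0.051) and Cebpz (-0.0058 ± 0.041) were not called. The numbers of C/EBP and Kruppel-like genes called were 7 higher and 3 lower of 18. The Kruppel-like gene Klf15 rose (0.94 ± 0.06) and Klf10 fell (-0.75 ± 0.046). In the thyroid hormone group, Dio2, which makes active hormone, rose from 7.79, 8.35, 8.23 and 8.64 to 18.5, 20.3, 18.1 and 19.5 RPKM (1.21 ± 0.045). The receptor genes Thra (0.055 ± 0.05) and Thrb (-0.17 ± 0.064) were not called. Of the insulin-like growth factor system, Igfbp7 rose from 19.6, 20.02, 18.7 and 23.6 to 44.5, 41.6, 44.7 and 46.3 RPKM (1.12 ± 0.065) and Igfbp3 by 1.12 ± 0.074, and Igf2 fell (-0.44 ± 0.045).

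Wnt and BMP genes fell more often than they rose, as did all genes tested (18.6% lower and 13.8% higher). Of 21 Wnt genes tested, 10 fell and 4 rose. The pathway's own targets Notum, a secreted inhibitor, Axin2, Nkd1 and Tcf7 were among those that fell: Notum from 0.908, 0.786, 0.920 and 0.896 to 0.138, 0.179, 0.222 and 0.157 RPKM, Axin2 with -0.50 ± 0.062, Nkd1 with -0.51 ± 0.066 and Tcf7 with -0.90 ± 0.10. The change of Notum was -2.35, or -1.03 with 0.5 RPKM added. The ligand genes Wnt7a (-0.50 ± 0.06) and Wnt7b (-0.29 ± 0.079), which maintain the barrier, fell, whereas the receptor gene Fzd4, which barrier endothelium uses, rose (0.78 ± 0.091) and Lef1 was not called (-0.26 ± 0.11). Other ligand genes, Wnt3 and Wnt4, rose, but the call of Wnt4 (0.29) was lost in the 16-library fit. In the BMP and TGF-beta group 9 of 24 fell and 5 rose, or 9 and 7 with GC and length trends removed. The endothelial BMP receptor gene Acvrl1 fell (-0.55 ± 0.057), and Tgfbr2 (0.77 ± 0.061) and Id2 (39.9 to 59.3 RPKM, 0.57 ± 0.057) rose. Clock genes were called at about the share over all genes (32.5%): of 20, 3 rose and 3 fell, and the decreases were Dbp (-0.36 ± 0.034), Rorb (-0.34 ± 0.053) and Clock, whose call was lost in the 16-library fit and without LPS replicate 1, 2 or 4. With GC and length trends removed the counts were 6 higher and 3 lower.

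Most metabolic and chaperone genes moved by small amounts. Of 28 cholesterol genes 13 fell and 2 rose, none by 2-fold. Mvd (-0.36 ± 0.071), Cyp51 (-0.30 ± 0.052) and Hmgcs1 (68.2 to 59.4 RPKM, -0.20 ± 0.047), enzymes of synthesis, fell, and the efflux gene Abca1 rose (0.65 ± 0.061). In glucose use, Pdk4, which holds pyruvate back from oxidation, rose from 1.75, 1.71, 1.66 and 1.90 to 4.12, 4.33, 4.75 and 4.06 RPKM (1.30 ± 0.066) and Pfkfb3 by 0.82 ± 0.053. Of 25 glucose genes 8 rose and 4 fell, but with GC and length trends removed 8 rose and 1 fell, in the 16-library fit 4 rose and 0 fell, and without the variance trend 4 rose and 2 fell. Respiratory chain genes were called less often than the 13.8% and 18.6% over all genes, with 1 higher and 3 lower of 24, and the direction flipped to 2 higher and 0 lower with the same correction; the 16-library fit gave 0 and 2, and no filter 1 and 7. Of 25 heat shock chaperone genes 2 rose and 5 fell (28% called, against 32.5% over all genes), or 3 and 6 with GC and length trends removed. Among them, Hspb1 rose from 1.82, 2.45, 2.43 and 2.04 to 7.29, 7.41, 8.52 and 8.77 RPKM (1.88 ± 0.10) and Cryab fell from 89.5, 93.8, 94.8 and 89.9 to 65.8, 70.2, 69.8 and 65.5 RPKM (-0.44 ± 0.033). The stress regulator genes Ddit4 (21.8 to 42.4 RPKM, 0.96 ± 0.11) and Xbp1 (0.29 ± 0.04) rose, and the endoplasmic reticulum chaperone gene Hspa5 was not called (0.084 ± 0.058).

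Activity-regulated genes of neurons fell, while the summed level of neuronal markers overlapped between groups. Of 24 tested, 16 fell, 8 of them at least 2-fold, and 3 rose. Arc, a regulator of synaptic strength, fell from 33.04, 36.7, 34.7 and 32.6 to 8.41, 9.75, 9.25 and 13.5 RPKM (-1.77 ± 0.12), Nr4a1 from 19.97, 22.5, 19.5 and 20.2 to 7.38, 7.40, 6.82 and 11.8 RPKM (-1.33 ± 0.15) and Fos from 11.8, 8.76, 8.25 and 8.11 to 2.38, 4.61, 3.72 and 5.62 RPKM (-1.23 ± 0.23). Every LPS library lay below every saline library in these 3 genes. The neurotrophin gene Bdnf fell from 2.76, 3.14, 3.25 and 2.86 to 1.76, 1.64, 1.63 and 1.61 RPKM (-0.85 ± 0.067), and its receptor gene Ntrk2 was not called (44.998 to 46.03 RPKM). The growth arrest gene Gadd45g, on the same list, rose (0.80 ± 0.055). Neuronal markers summed to 1052 to 1113 RPKM after saline and 1088 to 1113 RPKM after LPS. Called shares of glutamate and GABA receptor, potassium channel and synaptic vesicle genes were below the background of 32.5%: 7 of 28, 8 of 29 and 6 of 25. Among them Grm3 (-0.43 ± 0.049), Gabra2 (-0.40 ± 0.095) and the microglial channel gene Kcnk13 (-0.87 ± 0.088) fell. Of 23 hypothalamic neuropeptide genes, Cartpt (19.9 to 14.9 RPKM) and Adcyap1 (-0.45 ± 0.057) fell, and Pomc (-0.44 ± 0.16), Npy (-0.13 ± 0.078) and Crh (0.0073 ± 0.14) were not called. This list counted 3 higher and 4 lower, close to the shares over all genes (13.8% and 18.6%), with 4 higher and 3 lower when GC and length trends were removed and 1 higher and 3 lower in the 16-library fit.

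**Figure D5:**
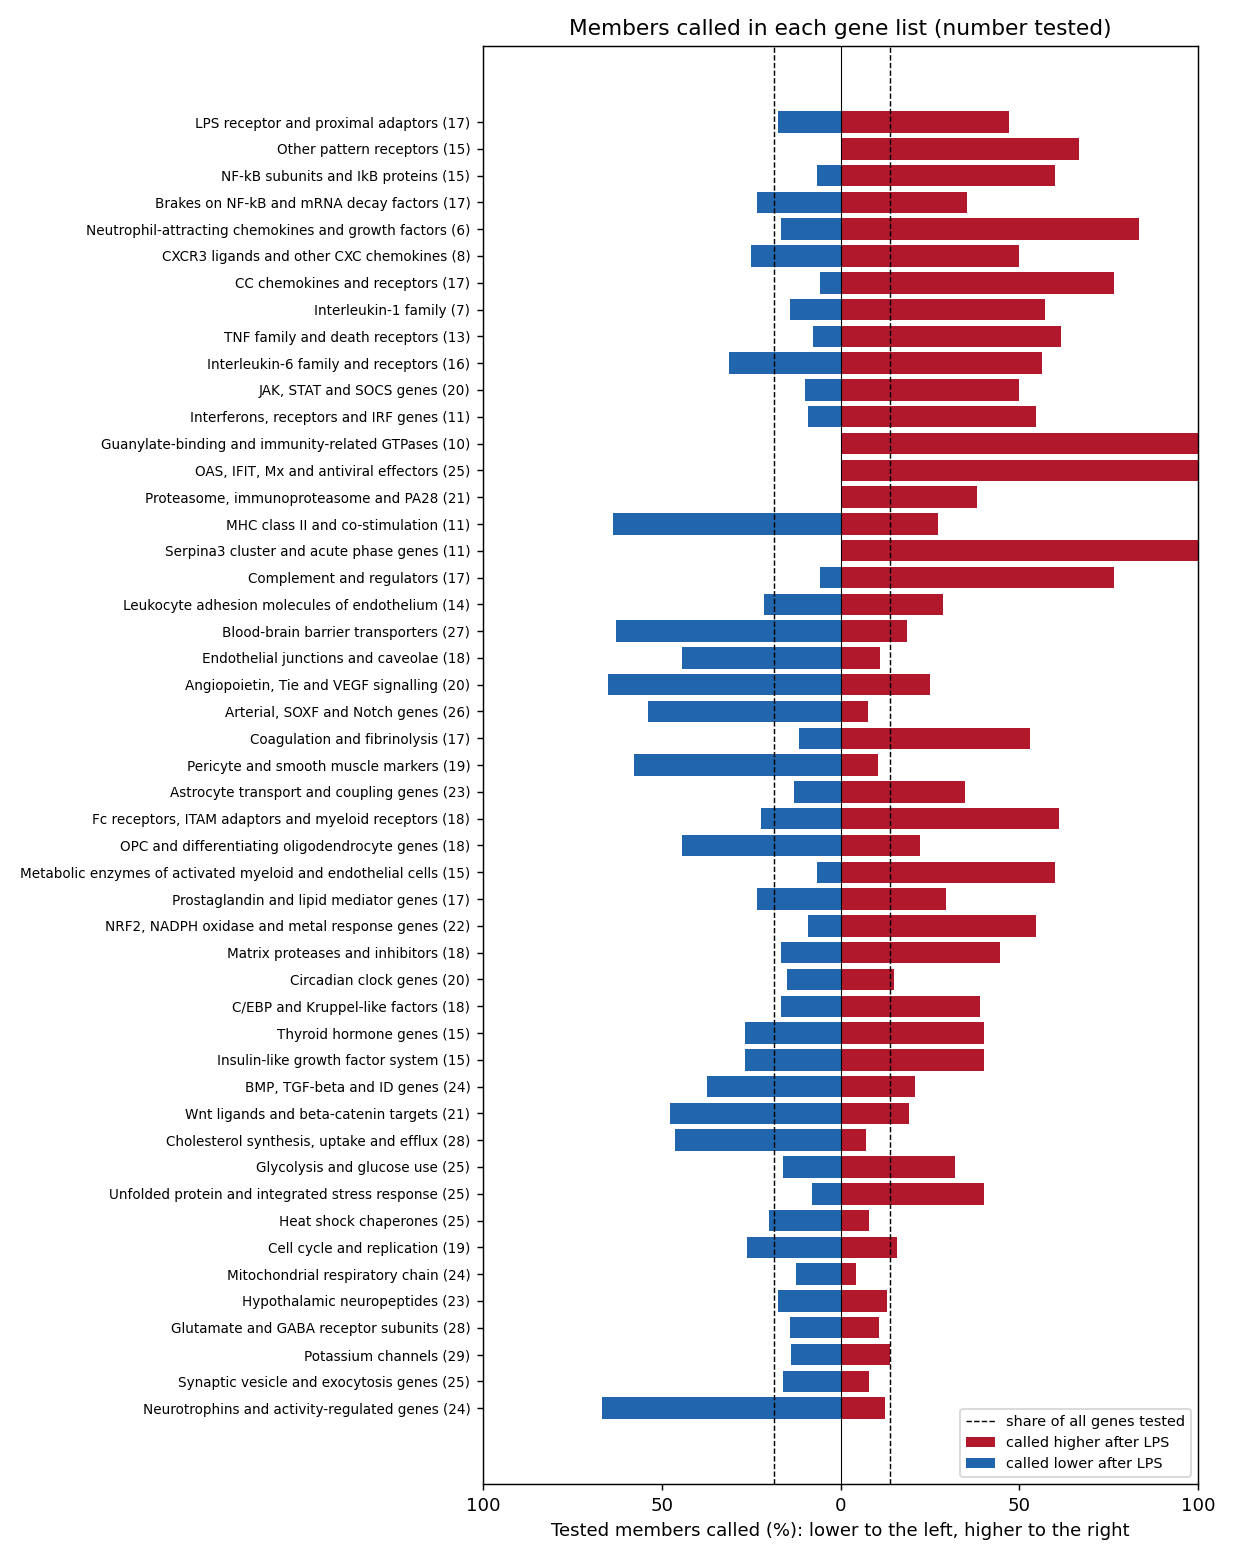
Share of the tested members of each of 49 gene lists called higher (right) or lower (left) after LPS; dashed lines mark the shares over all genes tested, 13.8% and 18.6%. The interferon effector and acute phase lists reach the right edge, transporter, angiopoietin and activity-regulated lists lean lower, and the respiratory chain and synaptic lists stay inside both lines.

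Neighbouring genes sometimes shared their direction. On chromosome 3, from 142530342 to 142783606, 6 tested protein-coding genes in a row rose, 4 of them guanylate-binding (Gbp7, Gbp3, Gbp2b and Gbp2) followed by Kyat3 and Gtf2b, with a median change of 2.26. On chromosome 11 from 80880169 to 82103400, Ccl2, Ccl7, Ccl11 and Ccl12 rose next to Asic2, and on chromosome 19 from 11375523 to 11604849 a run of 5 Ms4a genes rose with a median of 3.22. The Ifitm genes on chromosome 7, from 140941391 to 141017924, formed another run with Pgghg (median 1.92). The longest run held 8 Ugt1a genes on chromosome 1, called higher with a median of 0.387. The longest runs of decreases held 7 genes, and one on chromosome 10 from 80329953 to 80433647 had a median of only -0.28. How many runs would arise with 32.5% of genes called was not tested. Reads from near-identical members of the Gbp, Ifitm, Ifit3, Saa and Ugt1a families can be split between members, so single members are less certain than the families.

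LPS libraries differed in the level of raised genes. The mean over the 398 genes at least 2-fold higher was 1.55, 1.495, 1.45 and 1.69 log2 RPKM in LPS replicates 1 to 4, against -0.67, -0.67, -0.58 and -0.56 after saline. Replicate 4 was highest, as it was for Cxcl10. Over genes at least 2-fold lower the LPS means were -0.62, -0.62, -0.58 and -0.61, against 0.82, 0.87, 0.89 and 0.91 after saline. The first principal component held 73.6% of the variance and separated LPS from saline libraries, and the second, with 5.87%, separated saline libraries from each other. Replicate libraries differed by an SD of 0.221 to 0.262 on the log2 scale over tested genes. The low end of the distribution moved with treatment: the 25th percentile over all genes lay between -4.09 and -3.98 after saline and between -5.78 and -4.98 after LPS (exact permutation test, two-sided, p = 0.0286, the smallest that 4 against 4 allows). Its part in the folds against levels below 0.5 RPKM was not tested.

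The largest effects were set beside those in libraries labelled Lcn2-/-. Lcn2 RNA was not absent there and cannot check the label from gene-level values: it lay at 40.2, 34.1, 38.3 and 37.2 RPKM after LPS, against 71.5, 67.8, 66.7 and 82.7 RPKM in wild type. Saline values were 0.132, 0.204, 0.351 and 0.247 RPKM in the libraries labelled Lcn2-/- and 0.0650, 0.0741, 0.204 and 0.137 RPKM in wild type, so the fold rests in part on values far below 0.5 RPKM. For the 10 largest increases and 10 largest decreases, the difference between the LPS effects was tested in a fit of all 16 libraries (limma interaction, where 8.85% of genes were called). It was called for 3: the effect on Lcn2 was smaller in the labelled libraries by 1.97 (7.41 against 9.38, adjusted p = 0.0164), that on Csf3 larger by 1.18 ± 0.21 (adjusted p = 0.00462) and that on Cxcl10 larger by 3.18 ± 0.55 (8.95 against 5.78, adjusted p = 0.00421). For the other 17 it was not called, with differences from -0.91 for the iron exporter gene Slc40a1 to 1.20 for Cxcl1, and a missed threshold does not show that the effects were equal. The fit included a saline library labelled Lcn2-/- that stood apart from the others. How far these differences depend on that library is not reported here.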

How the data were processed

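RNA from 16 mouse hemi-brains was sequenced. The deposited table gives each gene's log2 RPKM after conditional quantile normalization (CQN) by the authors, per the file headers, on build mm10 per the submitters' processing notes. Aligner, counter and gene annotation: not given in the sources used here. CQN removes trends of GC content and length within a library and equalises distributions, so shifts shared by most genes are not measured. No counts are held, depth is unknown, and every per-sample column was used (0 left out).

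Saline and LPS libraries of wild type (4 each) were compared with limma 3.58.1 (R 4.3.3) on the log2 values, with a trend in the variance prior and Benjamini-Hochberg adjustment over the 16865 genes tested. In simulated data on 16865 genes, changes of 0.5, 1 and 2 log2 units were given to 67, 67 and 66 genes. The test recovered 71.6%, 91.0% and 100.0% of them, and 7.41% of its calls were false. Far fewer genes changed there than were called in the real libraries (32.5%), and the simulated noise was independent between genes. These rates therefore do not carry over to the comparison itself. Gene names and positions came from GENCODE M21 (GRCm38) by Ensembl ID, and 594 IDs without a match kept the ID. RefSeq promoters were matched by symbol. Genes are named by rule: the 25 largest changes each way among called genes without overlap between groups, the 10 largest RPKM gains and losses, the 10 smallest p each way, and from each list the 3 largest called changes each way and the most abundant gene not called. Other list members are given where a family is described, chosen after their values were seen. The members, lists and motifs were chosen with earlier results of these data known. Alternatives were another filter, none, added constants of 0.1 and 0.5 RPKM, no variance trend, median centring, removal of GC and length trends, a fit of all 16 libraries, and leaving out each library. Replicate numbers follow sample order and pair nothing.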

Additional observations from a re-analysis of the deposited data

Results flagged for a closer look

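In 80 genes, with the 4 saline and the 4 LPS libraries taken separately, a library stood apart from the other 3 of its group (by Dixon's test at the 95% level) in 9 of 160 groups. Chance gives such a gap in about 1 in 20 groups. After saline, Bsg (basigin, an endothelial and neuronal glycoprotein) was highest in replicate 1 with 194 RPKM, against 182 to 183 in the others, and Mt1 was lowest in that replicate with 384 RPKM, against 422 to 429.6. Cytl1, a secreted cytokine-like protein gene, was also lowest in saline replicate 1, with 0.527 RPKM against 1.31 to 1.47. Saline replicate 4 was highest for Cxcl1, with 0.266 RPKM against 0.0996 to 0.113, and for Nkx2-9, a homeobox gene, with 1.43 RPKM against 0.965 to 1.03. After LPS, replicate 4 was highest for Ch25h, with 10.8 RPKM against 9.08 to 9.18, and for Egr2, with 0.606 RPKM against 0.225 to 0.265. LPS replicate 3 was lowest for Itm2a, with 8.16 RPKM against 9.30 to 9.54, and for Serpina3f, a serine protease inhibitor gene, with 3.02 RPKM against 4.45 to 4.67. In each of these 9 genes the saline and LPS libraries did not overlap, but the naming rule required this for all except Bsg and Mt1. Over all genes tested the share without overlap was 32.7%.

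The LPS effect differed between genotype labels, by the interaction term of the limma fit of 16 libraries, for 3 of the 20 genes with the largest changes. The difference, labelled Lcn2-/- minus wild type, was -1.97 ± 0.44 for Lcn2 (adjusted p = 0.0164), 1.18 ± 0.21 for Csf3 (adjusted p = 0.00462) and 3.18 ± 0.55 for Cxcl10 (adjusted p = 0.00421). Lcn2 is the gene named in the label, and the levels of Csf3 after saline were below 0.1 RPKM in every wild type library. A saline library labelled Lcn2-/- that stood apart from the others was part of this fit.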

How the results depend on the processing

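The 4 counts of the comparison (2333 higher, 3144 lower, 398 and 169 of them by at least 2-fold) stayed within 1.5 times under most alternatives. The exceptions were the 2-fold counts with 0.5 RPKM added, 251 and 56, the 2-fold lower count under a stricter filter (log2 RPKM of at least 0 in 4 libraries), 93, and the lower counts with no filter, 12767 and 9191 by 2-fold, where genes below 0.5 RPKM enter. Leaving out 1 library gave 1923 to 2305 higher, 2501 to 3076 lower, 388 to 413 at least 2-fold higher and 159 to 180 at least 2-fold lower. Of the 5477 calls, 4732 were shared in direction after removal of GC and length trends, 4198 with 16 libraries, and 4320 to 4844 without 1 library. Of 294 named genes that were called, 217 were called in every alternative, 32 in each but the stricter filter, which did not test them, and 45 lost their call in 1 or more.

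Some genes that were not called changed sign. With GC and length trends removed the values were 0.0105 for Apcdd1, 0.029 for Apoe, 0.013 for Cplx1, 0.019 for Il11ra1, 0.083 for Mt3, 0.018 for Pkm and 0.021 for Psmb5. Without 1 library they ran from -0.0994 to 0.0235 for Apcdd1, -0.00279 to 0.0285 for Atp5a1, -0.0605 to 0.0639 for Ccl25, -0.0636 to 0.0398 for Ccna2, -0.031 to 0.023 for Cebpz, -0.0426 to 0.0395 for Il11ra1, -0.0444 to 0.0522 for Olig1, -0.0103 to 0.0412 for Ptgds, -0.0631 to 0.0244 for Slc39a10 and -0.0375 to 0.0408 for Tyrobp. The cause was not tested. No paired analysis was possible because the labels carry no replicate number shared between groups. Depth is unknown, and saline values such as those of Csf3 lie near or below the 25th percentile of their libraries (log2 RPKM of -4.09 to -3.98), which limits folds against them.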
